A study of Rattus norvegicus with 44 samples.

Results

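The effect of adding Compound 1 to Enalapril was read from kidney RNA of 21 male obese ZSF1 rats, 12 given the combination and 9 given Enalapril alone, out of 44 rats sequenced. The ZSF1 obese rat is an obese, diabetic and hypertensive animal with progressive kidney damage, used as a model of diabetic nephropathy. Both groups received Enalapril in the feed at 3 mg/kg/day, starting at 22 weeks of age and continuing for 6 months, and all rats carried an implanted telemetry device. The combination group received in addition Compound 1, a soluble guanylate cyclase (sGC) stimulator known here only by that name, at 1 mg/kg/day. The other 23 rats, 11 on Vehicle and 12 on Compound 1 alone at 1 and later 3 mg/kg/day, entered the fit to estimate the spread between animals. They also gave a second reading of Compound 1, without Enalapril, in separate animals and at a higher final dose. The comparison covered every entry with an FPKM (fragment density, scaled for transcript length and library size) above 1 in at least 9 of the 44 animals, which was 13482 of 32883 entries. Each sample was a portion of the right kidney.

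Enalapril lowers the formation of angiotensin II, a peptide that constricts vessels, promotes sodium retention and drives inflammation and scarring in the kidney. An sGC stimulator acts on another arm of vessel control. Nitric oxide (NO) made in the endothelium activates sGC in smooth muscle, pericytes and mesangial cells, sGC makes cGMP, cGMP-dependent protein kinases relax the muscle, and phosphodiesterases degrade the cGMP. The question for the kidney transcriptome was what Compound 1 changed on a background of blocked angiotensin II formation.

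The deposited FPKM values carry no read numbers, so the depth of each library was known only relative to the others. Relative depth ran from 0.801 to 1.36 in the Enalapril animals and from 0.837 to 1.24 in the combination animals (exact two-sided permutation test of the means, p = 0.463). Mitochondrially encoded genes held 23.2 to 43.3% of the summed FPKM with Enalapril and 25.7 to 41.6% with the combination (exact permutation p = 0.773). The combination animal 4007 had the highest mitochondrial share of its group and stood furthest apart. Its log2 values correlated with those of its nearest other animal at 0.965, against 0.972 to 0.981 for the other 20 animals compared. The summed FPKM of 28 proximal tubule genes was 9210 to 11427 with Enalapril and 8946 to 11639 with the combination.

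Adding Compound 1 to Enalapril changed few genes past the threshold. With limma on log2(FPKM + 0.1) and Benjamini-Hochberg adjustment over all 13482 genes, 1 gene (0.00742%) had an adjusted p under 0.05 together with a fold change above 1.5 or under 0.66. This was Mcpt2, which encodes a mast cell protease, and it was lower with the combination. Without the fold limit 7 genes (0.0519%) passed, of which 3 were higher (Ndrg2, Ada and Eng) and 4 were lower (Nabp1, Myef2, Mcpt2 and Tmem80). At an unadjusted p under 0.05 there were 548 genes higher (4.06%) and 853 lower (6.33%). Those 2 shares moved with the scaling: 49.3% of such genes were higher after median-of-ratios scaling and 24.5% after rescaling without mitochondrial genes, against 39.1% as deposited.

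These 7 calls depended on single animals. With 1 of the 21 animals left out in turn, between 0 and 51 genes had an adjusted p under 0.05. None passed without any 1 of Enalapril animals 2001, 2103, 2007 and 2010 or combination animal 4010, whereas the number of genes at an unadjusted p under 0.05 was 1111 to 1872 over the 21 fits. The most, 51 genes, passed without combination animal 4002. Median-of-ratios scaling and quantile normalization gave 49 and 51 genes, each including all 7. The signs of the 7 estimates were the same in every alternative fitted.

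Most genes were bounded to small changes. The median log2 fold change over all genes was -0.02 and the median standard error (SE) was 0.10 on the log2 scale. The 95% interval lay within 0.66 to 1.5 fold for 11887 genes (88.2%) and within 0.5 to 2 fold for 12999 genes (96.4%). A fold change here is on the log2(FPKM + 0.1) scale, which understates the change of low genes.

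Mcpt2 encodes mast cell protease 2, a serine protease stored in the granules of mucosal-type mast cells. Its lowest, median and highest FPKM were 3.82, 5.57 and 15.4 in the 9 Enalapril animals and 1.18, 3.03 and 4.54 in the 12 combination animals. All 12 combination animals lay below the Enalapril median, though the groups overlapped at their edges. The log2 fold change was -1.06 (SE 0.22, 95% interval -1.50 to -0.61, adjusted p = 0.046). Vehicle animals were higher, at 9.26, 15.6 and 21.1 FPKM, and animals on Compound 1 alone lay at 2.95, 4.91 and 9.94 FPKM. The Enalapril animal at 15.4 FPKM was 2103, the next was at 9.66, and without it the log2 fold change was -0.89. Mcpt2 had an adjusted p under 0.05 in 5 of the 21 fits that left out 1 animal and in 10 of the 14 other alternatives, with adjusted p from 0.0024 to 0.22 over all of them.

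**Figure D1:**
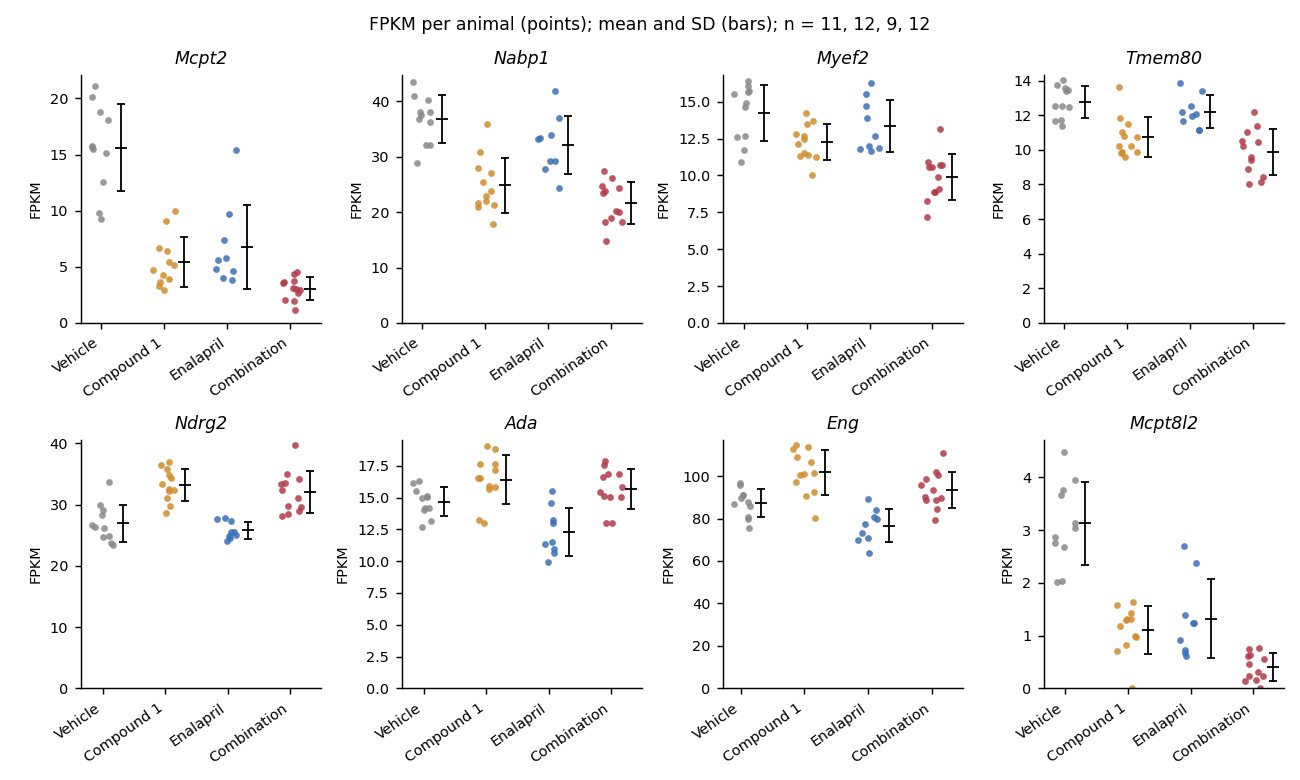
FPKM of the 7 genes with an adjusted p under 0.05 and of Mcpt8l2, 1 point per animal, for Vehicle (n = 11), Compound 1 (n = 12), Enalapril (n = 9) and Combination (n = 12), with bars for mean and SD. The combination points lie to the low side of Enalapril for Mcpt2, Nabp1, Myef2, Tmem80 and Mcpt8l2 and to the high side for Ndrg2, Ada and Eng; only the Ndrg2 groups do not overlap.

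Most other genes of the mast cell list were low in these kidneys. Of 16 genes on that list, 15 were in the file. The FPKM filter was passed by 5 and not by 10, none of which exceeded 1.24 FPKM in the 21 animals. Kit and Gata2, among the 5, were not low, at 4.39 to 8.14 and 4.15 to 9.92 FPKM with the combination. Tpsb2, a tryptase that defines connective-tissue mast cells, reached at most 0.625 FPKM, and Ms4a2, the beta chain of the high-affinity IgE receptor, reached at most 0.591. The 5 tested members all had estimates below 0, with a median of -0.43 against -0.02 over all genes. Besides Mcpt2, these were Cma1 (chymase, log2 fold change -0.50, 95% interval -0.99 to -0.01), Cpa3 (carboxypeptidase A3, -0.43, interval -0.92 to 0.06), Kit (the stem cell factor receptor, -0.02) and Gata2 (a transcription factor, -0.01). None of these 4 had an adjusted p under 0.05. Kit and Gata2 are also expressed by other kidney cells, and under median-of-ratios scaling or quantile normalization 2 of the 5 estimates of the list were above 0. Cpa3 ran from 0.162 to 1.85 FPKM with Enalapril and from 0.422 to 0.811 with the combination, so the Enalapril range enclosed the combination range. No combination animal exceeded 1 FPKM for Cpa3, which passed the filter through the other groups. For Cma1 the Vehicle values alone, 1.77 to 4.00 FPKM, met the filter. The list median is thus a description of these members and no separate support for Mcpt2.

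A further granule protease gene, Mcpt8l2, stood at 0.617, 1.24 and 2.70 FPKM with Enalapril and at 0, 0.384 and 0.767 with the combination. Mcpt8l2 too passed the filter through the other groups, with Vehicle at 2.01 to 4.49 FPKM. All 12 combination animals were below the Enalapril median. Its log2 fold change was -1.56 (SE 0.36, adjusted p = 0.091), which did not pass. Mcpt2 and Mcpt8l2 belong to a family of similar genes whose reads can be shared, so the split between members is uncertain. In whole tissue, fewer mast cells and less RNA per mast cell cannot be told apart.

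Nabp1 gave the smallest p of all genes. It encodes a single-stranded DNA binding protein that acts in DNA repair. Its FPKM was 24.4, 33.1 and 41.8 (lowest, median, highest) with Enalapril and 14.8, 21.9 and 27.5 with the combination. All 12 combination animals were below the Enalapril median, and the ranges overlapped between 24.4 and 27.5. The log2 fold change was -0.57 (SE 0.10, adjusted p = 0.019), a fold of 0.673 that fell just short of the limit of 0.66. The adjusted p was under 0.05 in 16 of the 21 fits without 1 animal and in 13 of the 14 other alternatives.

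Myef2, a repressor of myelin basic protein transcription, went from 11.6, 12.7 and 16.3 FPKM to 7.22, 10.2 and 13.2, and 11 of 12 combination animals lay below the Enalapril median. Its log2 fold change was -0.43 (SE 0.08, adjusted p = 0.029). Tmem80, a transmembrane protein, went from 11.1, 12.1 and 13.8 FPKM to 7.998, 9.89 and 12.2. It fell by 0.31 on the log2 scale (SE 0.07, adjusted p = 0.046), with 11 of 12 animals below the Enalapril median. Both groups overlapped for either gene.

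Ndrg2 encodes a stress- and aldosterone-responsive protein of the distal nephron and many other tissues. Its FPKM was 24.1, 25.6 and 27.8 with Enalapril and 28.2, 31.8 and 39.8 with the combination, so the lowest combination animal stood above the highest Enalapril animal. The log2 fold change was 0.30 (SE 0.06, adjusted p = 0.029). Only 2 of the 13482 genes (0.0148%) had groups that did not overlap. The other was Cadm4, a cell adhesion molecule named here after its values were seen, at 3.33 to 5.28 FPKM with Enalapril and 5.44 to 7.56 with the combination, with an adjusted p of 0.18.

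Ada encodes adenosine deaminase, which clears adenosine. It rose from 9.95, 11.5 and 15.5 FPKM to 13.01, 15.7 and 17.9 (log2 fold change 0.36, SE 0.07, adjusted p = 0.046). Eng encodes endoglin, a co-receptor for TGF-beta and BMP ligands on endothelial cells, and rose from 63.9, 77.3 and 89.2 FPKM to 79.5, 91.7 and 110.7 (log2 fold change 0.29, SE 0.06, adjusted p = 0.046). For both genes all 12 combination animals lay above the Enalapril median, and the groups overlapped. Over the 21 fits without 1 animal, an adjusted p under 0.05 was kept in 13 for Ndrg2, 9 for Ada, 7 for Eng, 15 for Myef2 and 5 for Tmem80.

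Genes next in order of p are given as values, since none had an adjusted p under 0.05. On the higher side were Slc2a4, the insulin-responsive glucose transporter GLUT4 (log2 fold change 0.55, adjusted p = 0.072), and Tnni1, a troponin subunit of slow muscle (0.96, adjusted p = 0.091). Slc2a4 ran from 1.80 to 3.17 FPKM with Enalapril and from 2.20 to 4.60 with the combination. Tnni1 was low in both groups, at 0.281 to 1.44 and 0.869 to 2.44 FPKM. Fbxo44, a ubiquitin ligase subunit (0.32), Bsnd, the barttin subunit of the distal chloride channels (0.26), Stk32b, a kinase (0.53), Cryab, a small heat shock protein (0.30), and Kcnq1, a potassium channel (0.27), completed the 10 genes of smallest p on that side, with adjusted p from 0.096 to 0.13.

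On the lower side the next were Vmp1, an autophagy protein (log2 fold change -0.26, adjusted p = 0.091), Rbm39, a splicing regulator (-0.43, 0.096), Rpp30, a ribonuclease P subunit (-0.44, 0.096), Ptcd3, a mitochondrial ribosome protein (-0.39, 0.096), and AC134224.1 (-0.53, 0.10). Rbm39 stood at 35.04, 49.8 and 60.8 FPKM with Enalapril and at 28.4, 35.6 and 49.8 with the combination, and all 12 combination animals were below the Enalapril median. Splicing factor genes, looked at after these values were seen and chosen by their family symbol, had estimates on the same side. All 11 tested Srsf genes were below 0, with a median of -0.24, where 55.5% of all estimates were below 0. Of the 11, 6 had an unadjusted p under 0.05 and 0 an adjusted p under 0.05 in limma. Of all genes, 6.33% were lower at an unadjusted p under 0.05. The 3 tested Luc7l genes had a median of -0.28. Under median-of-ratios scaling and quantile normalization 10 of the 11 Srsf estimates were below 0 and 1 had an adjusted p under 0.05. Without combination animal 4002, the median of the Srsf genes was -0.31 and 2 had an adjusted p under 0.05. In that fit 51 of all genes passed, 44 of them lower.

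The same genes were then read in the animals without Enalapril. Compound 1 minus Vehicle uses none of the 21 animals above, although the final dose of Compound 1 was 3 mg/kg/day there and 1 mg/kg/day in the combination. All 7 genes had the same sign in both comparisons, and 4 of them (Mcpt2, Nabp1, Ndrg2 and Tmem80) also had an adjusted p under 0.05 for Compound 1 minus Vehicle. Log2 fold changes without Enalapril were -1.55 for Mcpt2 (adjusted p = 2.11e-05), -0.58 for Nabp1 (0.00048), 0.30 for Ndrg2 (0.0025) and -0.25 for Tmem80 (0.047). The other 3 were 0.22 for Eng (adjusted p = 0.057), 0.16 for Ada (0.31) and -0.21 for Myef2 (0.23).

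The difference of the 2 effects was tested in the same fit. For Nabp1 it was 0.01 on the log2 scale (95% interval -0.28 to 0.29) and for Ndrg2 -0.00 (interval -0.17 to 0.16). For Mcpt2 it was 0.50 with an interval of -0.12 to 1.12, and neither an equal nor a clearly smaller effect was resolved.

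**Figure D2:**
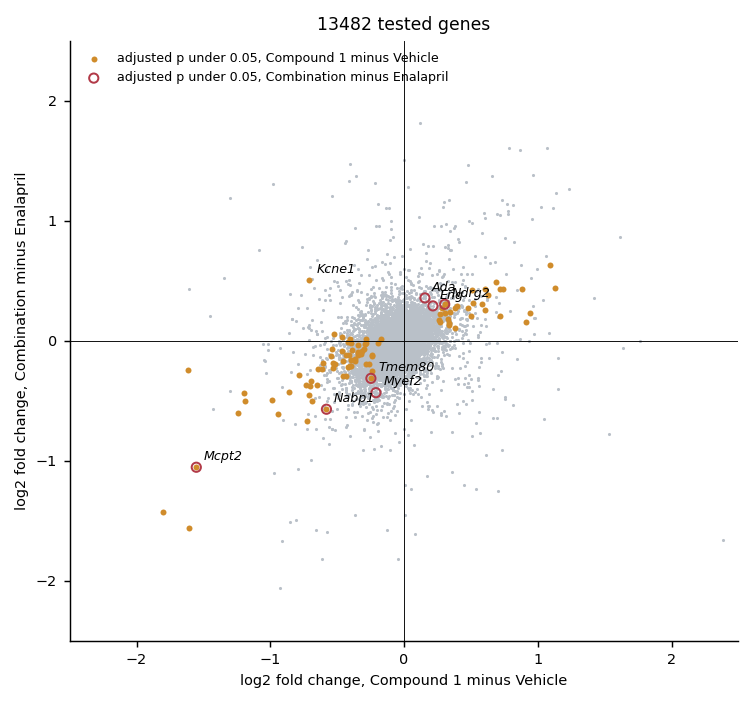
Log2 fold change of the 13482 tested genes for Combination minus Enalapril (vertical axis) against Compound 1 minus Vehicle (horizontal axis, separate animals), 1 point per gene. Rings mark the 7 genes with an adjusted p under 0.05 in the first comparison and filled orange points the 95 in the second; all 7 rings lie in the lower left or upper right, and 4 genes fall outside the axes of 2.5 in either direction.

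Beyond the 7 genes, 72 of the 76 genes (94.7%) with an unadjusted p under 0.001 for Combination minus Enalapril had the same sign for Compound 1 minus Vehicle, where 63.7% of all genes did. Compound 1 minus Vehicle gave 95 genes at an adjusted p under 0.05, and 34 of them also passed the fold limits. Of the 95, 89 (93.7%) had the same sign with Enalapril present, 45 had that sign with an unadjusted p under 0.05, and 4 an adjusted p under 0.05. Of all 13482 genes, 1160 had the same sign and an unadjusted p under 0.05 with Enalapril present. At an adjusted p under 0.05 there were 7. Kcne1, a potassium channel subunit named after its values were seen, was the 1 gene of the 95 with the opposite sign and an unadjusted p under 0.05 (log2 fold change 0.50 with Enalapril and -0.71 without). Across all 13482 genes the 2 sets of log2 fold changes correlated at Pearson r = 0.32 and Spearman rho = 0.38, a description across genes, which are not independent replicates. The 2 comparisons have no animal in common, while the tissue and the scaling of the table are common to both.

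The NO-sGC-cGMP genes themselves showed no called change. Of 40 listed genes 37 were in the file and 28 passed the filter, and their median log2 fold change was 0.00. With limma, 0 of the 28 had an adjusted p under 0.05, and 3 had an unadjusted p under 0.05, 2 higher (7.14%) and 1 lower (3.57%), shares close to the 4.06% and 6.33% over all genes. The drug target is a heterodimer of an alpha and a beta subunit. Gucy1a1, the alpha-1 subunit, stood at 8.92, 10.1 and 13.7 FPKM with Enalapril and at 6.91, 8.99 and 14.9 with the combination, and Gucy1b1, the beta-1 subunit, at 4.57, 5.84 and 8.64 and at 4.47, 5.93 and 8.45. The groups overlapped widely for both, with log2 fold changes of -0.15 (95% interval -0.39 to 0.09) and -0.06 (interval -0.30 to 0.18). Gucy1b2, the beta-2 subunit, was at 7.85 to 12.5 and 9.23 to 15.03 FPKM (0.22, interval -0.03 to 0.48).

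Upstream, Nos3, the endothelial NO synthase, had a log2 fold change of 0.14 (interval -0.08 to 0.37), and Nostrin, which binds and relocates that enzyme, had -0.23 (interval -0.45 to -0.01). Downstream, the phosphodiesterase gene Pde1a was at 5.82, 7.24 and 8.35 FPKM with Enalapril and at 7.42, 7.77 and 10.99 with the combination. All 12 combination animals were above the Enalapril median (log2 fold change 0.22, adjusted p = 0.32). Pde9a, a phosphodiesterase specific for cGMP, also had 12 of 12 animals above (0.17, adjusted p = 0.44), and Pde5a, the target of sildenafil, had 0.07 (interval -0.19 to 0.34). Npr1, the receptor of atrial natriuretic peptide, had 0.06 (interval -0.12 to 0.24). Nppa, which encodes that peptide, had a combination value of 39.5 FPKM in animal 4010 with the next at 2.81, and its interval of -0.37 to 2.64 was the widest of the list.

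Among 9 listed genes under the filter (Nos1, Gucy1a2, Gucy2c, Nppb, Nppc, Corin, Prkg2, Pde10a and Kcnma1) no difference was detectable. The smallest exact two-sided permutation p was 0.208, and all 9 were 0.944 after adjustment over the 9. Prkg2, which encodes cGMP-dependent protein kinase II, averaged 0.365 ± 0.1003 FPKM with Enalapril (SD, n = 9) and 0.291 ± 0.156 with the combination (SD, n = 12).

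**Figure D3:**
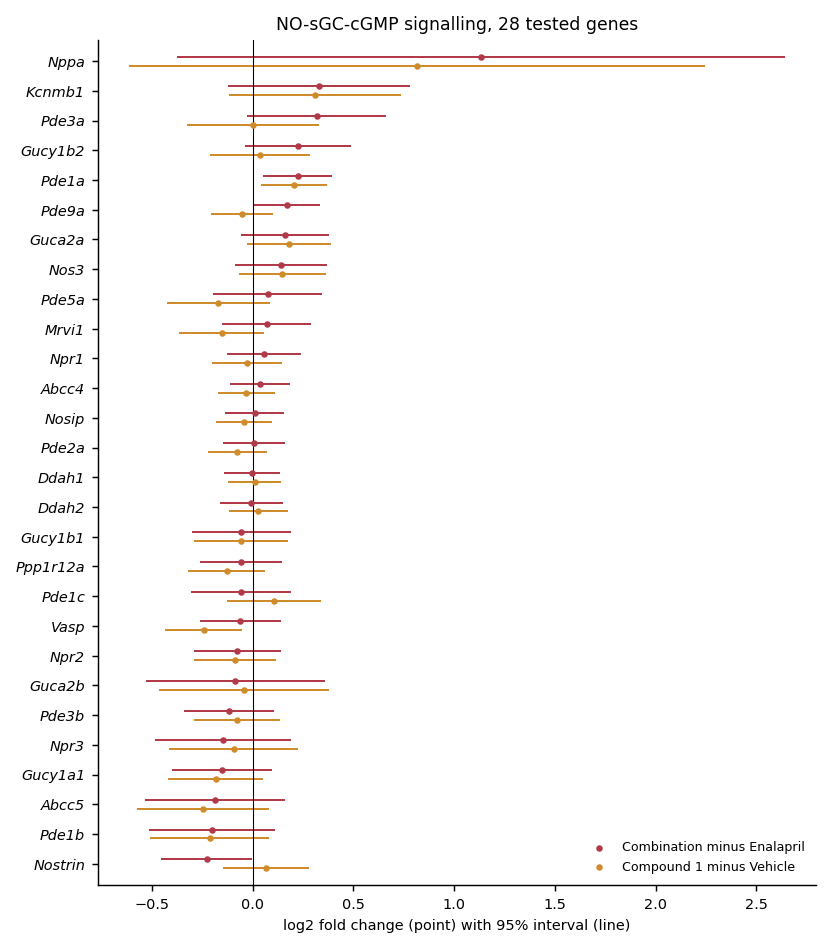
Log2 fold change with its 95% interval for the 28 tested NO-sGC-cGMP genes, for Combination minus Enalapril and for Compound 1 minus Vehicle in separate animals. The points of Gucy1a1 and Gucy1b1 lie at -0.15 and -0.06 for Combination minus Enalapril with intervals that include 0, and Nppa has the widest intervals.

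Smooth muscle and pericyte genes had estimates on the higher side, where 44.5% of all estimates were above 0. All 20 tested genes of smooth muscle and pericytes had a log2 fold change above 0 (range 0.04 to 0.46), with a median of 0.22 against -0.02 over all genes. Of the 20, 10 (50%) had an unadjusted p under 0.05 and were higher, where 4.06% of all genes did, and 0 had an adjusted p under 0.05 in limma. Desmin (Des), an intermediate filament of muscle, was at 14.2, 16.6 and 19.9 FPKM with Enalapril and at 17.4, 20.7 and 27.3 with the combination. All 12 combination animals were above the Enalapril median (log2 fold change 0.29, SE 0.08, adjusted p = 0.18). Myl9, a myosin light chain of contractile cells, went from 40.8, 52.6 and 63.4 to 52.5, 63.5 and 76.1 FPKM (0.29, adjusted p = 0.23). The defining markers Acta2 (smooth muscle actin), Tagln (transgelin) and Myh11 (smooth muscle myosin) had 0.26, 0.23 and 0.22, with adjusted p from 0.38 to 0.51.

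The count rested on many animals but was not the same without each. Over all alternatives 6 to 12 of the 20 genes had an unadjusted p under 0.05, and the median stayed between 0.17 and 0.26. The low of 6 came with the inner medulla covariate and without Enalapril animal 2001, Enalapril animal 2005 or combination animal 4011. With sample weights, or without the 6 animals listed last, 3 of the 20 estimates were below 0. The mean log2 level of the list ran from 3.19 to 3.48 in the Enalapril animals and from 3.26 to 4.02 in the combination animals, so the groups overlapped. The animal at 4.02 was 4002, and the next was at 3.69. Without it the median was 0.20, 18 estimates were above 0 and 7 genes had an unadjusted p under 0.05. With 3 libraries left out that were least like the rest, an alternative added after the data were seen, the median was 0.21. Without Enalapril, the same list had a median of 0.08, and 16 of 20 estimates were above 0. Over all genes the median was -0.07 and 26.8% of estimates were above 0 in that comparison. The part that vessel content of the tissue piece played was not tested.

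**Figure D4:**
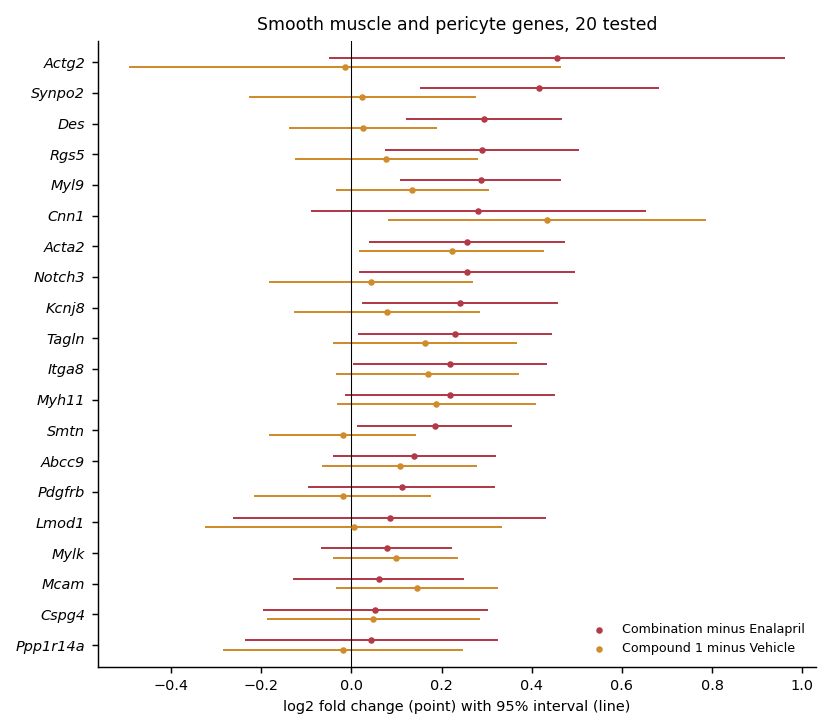
Log2 fold change with its 95% interval for the 20 smooth muscle and pericyte genes, for Combination minus Enalapril and for Compound 1 minus Vehicle in separate animals. Every Combination minus Enalapril point lies above 0, from 0.04 to 0.46, and many of the intervals include 0.

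Endothelial genes followed in part. Of 19 tested, 15 had estimates above 0, the median was 0.11, 4 (21.1%, against 4.06% of all genes) had an unadjusted p under 0.05 and were higher, and 1 (Eng) had an adjusted p under 0.05. Vwf, the von Willebrand factor gene, was at 1.76, 2.36 and 3.04 FPKM with Enalapril and at 2.18, 2.71 and 3.78 with the combination (log2 fold change 0.29, adjusted p = 0.23). The defining markers Cdh5 (VE-cadherin) and Kdr (a VEGF receptor) had 0.11 and -0.04, with intervals of -0.08 to 0.31 and -0.23 to 0.16. The summed FPKM of the list was 322 to 455 with Enalapril and 376 to 490 with the combination. Vasoactive receptors included Ramp1, part of the CGRP receptor (0.39, adjusted p = 0.32), and Adora2a, an adenosine receptor (0.26, adjusted p = 0.35). Of 22 vasoactive peptide genes 4 (18.2%) had an unadjusted p under 0.05, all higher, against 4.06% of all genes.

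Distal nephron genes also had estimates mostly above 0. On the list that joins thick ascending limb with distal tubule, 15 of 18 were above 0, the median was 0.14, and 5 (27.8%) had an unadjusted p under 0.05, all higher, against 4.06% of all genes, with 0 at an adjusted p under 0.05 in limma. Slc8a1, the sodium-calcium exchanger of the distal tubule, was at 4.28, 6.51 and 9.18 FPKM with Enalapril and at 5.95, 8.76 and 11.6 with the combination (log2 fold change 0.45, SE 0.12, adjusted p = 0.15). Bsnd was at 22.0, 24.1 and 28.3 and at 26.4, 29.2 and 33.4 FPKM, with 12 of 12 combination animals above the Enalapril median. Slc12a3, the thiazide-sensitive sodium chloride cotransporter, had 12 of 12 above (0.20, adjusted p = 0.34). Egf, epidermal growth factor of the distal tubule, was at 50.8, 62.1 and 84.8 and at 46.0, 89.8 and 112.2 FPKM (0.43, adjusted p = 0.33). In animals without Enalapril the list median was 0.14 too, with 17 of 18 estimates above 0, against 26.8% of all genes.

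On the list of collecting duct principal cells, 13 of 15 estimates were above 0, with a median of 0.11. At an unadjusted p under 0.05, 3 were higher (20%) and 1 lower (6.67%), against 4.06% and 6.33% of all genes. Scnn1a, the alpha subunit of the epithelial sodium channel, had a log2 fold change of 0.24 (adjusted p = 0.29), and Cldn4, a tight junction claudin, had -0.38 (adjusted p = 0.22). Without Enalapril both had the same sign and an adjusted p under 0.05 (0.34 and -0.70). Ptgs2, which encodes cyclooxygenase-2, was at 1.36, 1.71 and 2.21 FPKM with Enalapril and at 0.661, 1.08 and 1.78 with the combination. Its log2 fold change was -0.65 (SE 0.17, adjusted p = 0.14), and 11 of 12 combination animals were below the Enalapril median. Ptger1, a prostaglandin E2 receptor, had 0.37 (adjusted p = 0.28).

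Immune lists differed in the side of their estimates. Over all 13482 genes 55.5% of estimates were below 0 and 44.5% above 0. Of 29 tested interferon-stimulated genes, 27 were below 0, with a median of -0.11, and 2 (6.90%) had an unadjusted p under 0.05, close to the 6.33% over all genes. These 2 were Ifi44 (log2 fold change -0.38, adjusted p = 0.27) and Herc6, a ubiquitin-like ligase (-0.46, adjusted p = 0.31). Herc6 was at 3.06, 4.31 and 5.76 FPKM with Enalapril and at 1.82, 3.32 and 4.30 with the combination. The same list had a median of -0.37 without Enalapril, where all 29 were below 0 and 6 had an adjusted p under 0.05. Over all genes the median was -0.07 and 73.2% of estimates were below 0 in that comparison. Median-of-ratios scaling moved the count of estimates below 0 to 25 of 29 with Enalapril. Sample weights and the inner medulla covariate raised the genes with an unadjusted p under 0.05 to 13 and 11, and leaving out Enalapril animal 2001 to 5. The lower genes among all 13482 also rose in these fits, to 1439, 1302 and 937, against 853 in the main fit.

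Of 60 cytokine, chemokine and receptor genes 37 had estimates below 0, and 13 had an unadjusted p under 0.05, 11 lower (18.3%) and 2 higher (3.33%), against 6.33% and 4.06% of all genes. Ccl20, a chemokine that attracts lymphocytes and dendritic cells, was at 2.43, 3.51 and 5.20 FPKM with Enalapril and at 1.91, 2.46 and 4.09 with the combination (log2 fold change -0.49, adjusted p = 0.26). Il7r, the interleukin 7 receptor of lymphocytes, had -0.60 (adjusted p = 0.27). The count of lower genes ran from 4 to 16 over the alternatives, and the 4 came without the animals numbered 21xx and 31xx. Without Enalapril animal 2103 alone the count was 6. Of 22 macrophage and monocyte genes and 21 T and B lymphocyte genes, 0 had an unadjusted p under 0.05, with medians of -0.05 and -0.08. The estimates of 7 of 11 MHC class II genes, 29 of 47 complement and coagulation genes and 3 of 4 neutrophil genes were above 0, with medians of 0.02, 0.03 and 0.08. Of these only complement and coagulation had genes at an unadjusted p under 0.05, 3 higher (6.38%) and 1 lower (2.13%), against 4.06% and 6.33% of all genes.

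**Figure D5:**
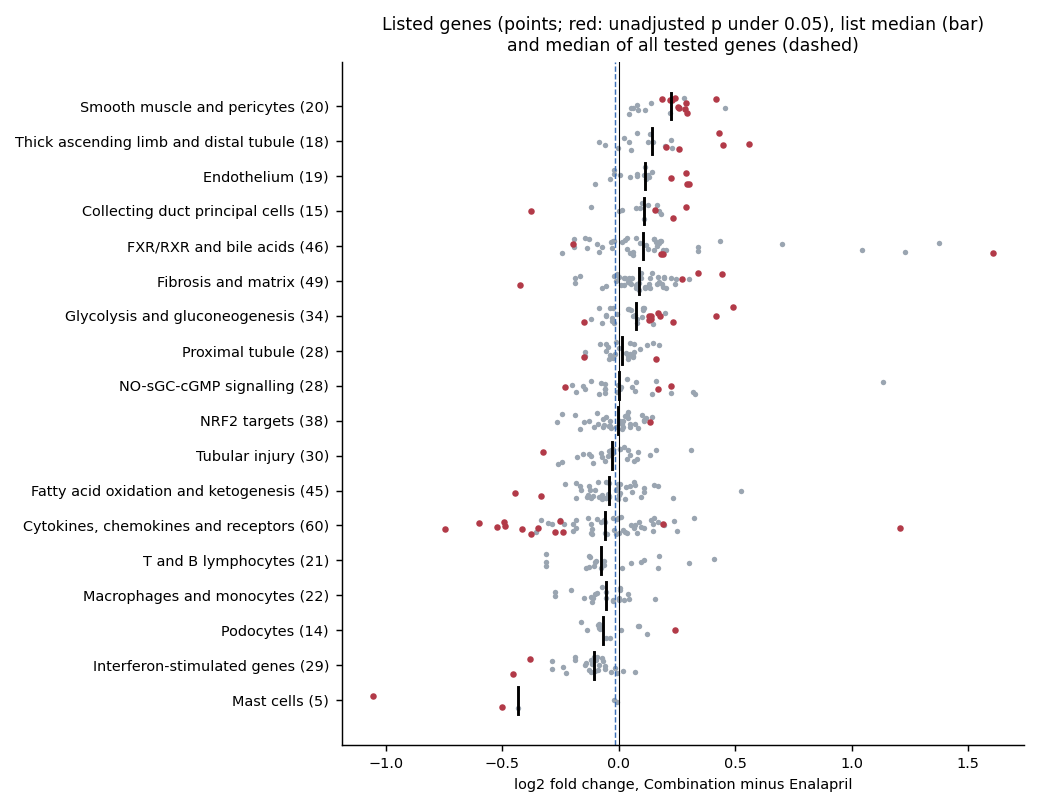
Log2 fold change, Combination minus Enalapril, of the tested members of 18 gene lists (1 point per gene, number tested in brackets), with the list median as a bar, members with an unadjusted p under 0.05 in red and the median of all genes as a dashed line. The smooth muscle and pericyte list sits furthest to the right, with a median of 0.22, and the mast cell list furthest to the left, with -0.43.

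Of 30 tubular injury genes 1 (3.33%) was lower at an unadjusted p under 0.05, against 6.33% of all genes. It was Anxa1 (annexin A1, log2 fold change -0.32, adjusted p = 0.44), and no listed gene was higher at that limit. Havcr1, which encodes the injury marker KIM-1, was at 17.7, 22.5 and 28.5 FPKM with Enalapril and at 13.6, 18.9 and 26.1 with the combination (-0.26, interval -0.54 to 0.02). Lcn2, which encodes NGAL, and Cst3, which encodes cystatin C, had 0.04 (interval -0.31 to 0.39) and -0.03 (interval -0.20 to 0.13). Of 49 fibrosis and matrix genes 40 were above 0 with a median of 0.09, and 4 had an unadjusted p under 0.05, 3 higher (6.12%) and 1 lower (2.04%), against 4.06% and 6.33% of all genes. They included Matn1, a cartilage matrix protein (0.44, adjusted p = 0.31), and Col6a5, a collagen VI chain (-0.42, adjusted p = 0.31), and both had the same sign and an adjusted p under 0.05 without Enalapril (1.13 and -0.86). For Matn1 the latter is no separate result, since the study named it for its rise with Compound 1 against Vehicle in the same animals.

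Of 34 glycolysis and gluconeogenesis genes, 10 had an unadjusted p under 0.05, 9 higher (26.5%) and 1 lower (2.94%), against 4.06% and 6.33% of all genes, with a median of 0.07. Pkm, pyruvate kinase, was at 146.9, 160.3 and 173.1 FPKM with Enalapril and at 165.0, 181.7 and 231.1 with the combination, and 12 of 12 combination animals were above the Enalapril median (log2 fold change 0.23, adjusted p = 0.17). Hk1, hexokinase 1, had 0.18 (adjusted p = 0.17), and Pgam2, the muscle form of phosphoglycerate mutase, had 0.49 (adjusted p = 0.20). Of 46 genes of FXR/RXR and bile acid handling 4 had an unadjusted p under 0.05, 3 higher (6.52%) and 1 lower (2.17%), against 4.06% and 6.33% of all genes, with a median of 0.11. Fetub, a fetuin of the plasma, had 0.18 (adjusted p = 0.31). Of 38 NRF2 targets 1 (2.63%) was higher at an unadjusted p under 0.05, against 4.06% of all genes, and none was lower. It was Gstp1, a glutathione transferase (0.13, adjusted p = 0.39), and the median of the list was -0.00.

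A further 4 genes examined in the study were read here by their values. Slc23a3, a solute carrier of the proximal tubule, was at 19.2, 23.4 and 28.7 FPKM with Enalapril and at 25.9, 31.1 and 36.9 with the combination, and 12 of 12 combination animals were above the Enalapril median (log2 fold change 0.38, SE 0.11, adjusted p = 0.18). Fa2h, a fatty acid hydroxylase, had 0.31 (adjusted p = 0.32), Esrrb, an orphan nuclear receptor, had 0.26 (adjusted p = 0.59), and Cd163, a scavenger receptor of macrophages, had 0.16 (interval -0.30 to 0.61). In the animals without Enalapril the log2 fold changes of the 4 were 0.63, 0.52, 0.61 and 0.91, all with an adjusted p under 0.05. The study had named these 4 among its most significant genes raised by Compound 1 against Vehicle in the same animals. Passing there followed from that choice and is no separate result, and the estimates there may be too large. The limma test of the difference between the 2 effects gave an adjusted p of 0.99 for each. This does not show equal effects, and the 2 estimates for Cd163 were 0.16 and 0.91. Cd163 ran from 0.439 to 1.07 FPKM with the combination and from 0.632 to 2.65 on Compound 1 alone.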

How the data were processed

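Kidney RNA from 44 rats was sequenced from a stranded mRNA library, and the authors deposited 1 table of FPKM per gene symbol and animal. The submitters' processing notes name the build rn6. The aligner and the counting tool were not given in the sources used here. In the study, the authors tested each treatment against Vehicle with DESeq2 on read counts, which are not analysed here. FPKM removes library size and gene length but not the share taken by abundant mitochondrial genes, and it carries no read depth; relative depth was estimated from the ratios of low values between libraries. Since these are not counts, limma 3.58.1 (R 4.3.3) with a mean-variance trend was fitted to log2(FPKM + 0.1) of all 44 animals in 4 groups, for entries that exceeded 1 FPKM in 9 or more animals. Genes were called where the fold was above 1.5 or under 0.66 and the Benjamini-Hochberg p over 13482 genes was under 0.05. Each replicate is a separate rat. Single values were compared by exact permutation of the 21 animals (293930 arrangements). The fit was also run on simulated data, drawn as independent values with no scaling error and no outlying animal. That run does not cover how scaling or single animals moved the calls.

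Named genes were every called gene, the 10 of smallest p in each direction, up to 2 members of smallest p (or called members) of each gene list, the tested NO-sGC-cGMP genes and genes the study names, beside defining cell markers. Members of a list with 5 or fewer tested genes, Cadm4, Kcne1, the Srsf and Luc7l families and any other gene outside this rule were named after their values were seen. The comparison, the gene lists and the tests were chosen with earlier results of these data known. Of 28906 symbols 295 stand on more than 1 entry, and each entry was tested as it stands. Alternatives changed the pseudocount, the filter, the scaling, the covariates and the animals. The table holds 2 empty columns, which were left out. Some genes, and what depends on them, are not reported here.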

Additional observations from a re-analysis of the deposited data

Results flagged for a closer look

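Kcne1, a regulatory subunit of potassium channels, was the 1 gene whose Compound 1 effect differed with and without Enalapril by the test of the difference itself (1.21 on the log2 scale, SE 0.23, limma adjusted p = 0.034 over 13482 genes). Its log2 fold change was 0.50 for Combination minus Enalapril (adjusted p = 0.26, higher than the Enalapril median in 11 of 12 animals) and -0.71 for Compound 1 minus Vehicle (adjusted p = 0.013). No Vehicle or Compound 1 animal was left out singly, so the dependence of the difference on single animals of those groups was not examined. The call of the difference was lost in 11 of the 21 fits without 1 animal (Enalapril 2001, 2007, 2009 or 2010, or combination 4001, 4003, 4004, 4008, 4010, 4011 or 4012). It was also lost under median-of-ratios scaling, quantile normalization, no filter, FPKM above 5, rescaling without mitochondrial genes, and without the animals numbered 21xx and 31xx, with 0 genes passing in each. The final dose of Compound 1 was 1 mg/kg/day in the combination and 3 mg/kg/day alone, so dose and background cannot be told apart. Kcne1 ran from 1.82 to 5.06 FPKM with Enalapril and from 2.41 to 5.28 with the combination.

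In the Enalapril group, 4 of 78 genes tested (5.13%) had 1 animal whose gap to the next, as a share of the group's range, exceeded Dixon's 95% critical value for 9 samples, and chance alone gives about 5%. The highest animal stood apart for Mcpt2 (gap over range 0.496, animal 2103), for Ptcd3 (0.50, animal 2010, 66.7 against 54.8 FPKM) and for Kcne1 (0.536, animal 2005, 5.06 against 3.33 FPKM). The lowest stood apart for Pde3a, a phosphodiesterase (0.558, animal 2005, 0.456 against 1.37 FPKM). Groups of more than 10 animals were not examined in this way.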

How the results depend on the processing

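Combination versus Enalapril gave 7 genes at an adjusted p under 0.05, 1 of them called. Without 1 of the 21 compared animals in turn these counts ran from 0 to 51 and from 0 to 8. The difference of the Compound 1 effect ran from 0 to 1 gene (0 in 11 of 21 fits), and the 95 genes of Compound 1 versus Vehicle from 82 to 126. No Vehicle or Compound 1 animal was left out singly. The last range therefore shows only the shared estimate of spread moving, and dependence of that comparison on its own single animals was not tested. Adjusted and called counts were 49 and 4 with median of ratios, 51 and 4 with quantile normalization, 87 and 18 with sample weights, 16 and 6 with the inner medulla covariate, 3 and 0 with the relative depth covariate, 6 and 2 without the 6 animals listed last, 0 and 0 without the animals numbered 21xx and 31xx (where 499 genes were higher and 605 lower at an unadjusted p under 0.05), 9 and 2 with a pseudocount of 1, and 14 and 4 without the 3 libraries least like the rest. With no fold threshold 7 were called. Fitting only the 2 groups compared gave 5 genes, 1 of them among the 7. The difference of the Compound 1 effect gave 0 genes with no filter, FPKM above 5, median of ratios, quantile normalization, rescaling without mitochondrial genes and without the animals numbered 21xx and 31xx, and 2 without the 3 libraries. Compound 1 versus Vehicle gave 146, 174, 227 and 296 genes with median of ratios, quantile normalization, sample weights and the inner medulla covariate, and 49, 54 and 166 without the 6 last, the 21xx and 31xx, and the 3 libraries. The causes were not tested. The alternative without 3 libraries and those of gene lists and families were added after seeing the data. No paired analysis was possible because the groups share no replicate numbers. FPKM holds no read numbers, so differences of low genes were limited by an unknown depth.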
